A study of Homo sapiens with 6 samples.

Results

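SMARCA4 occupancy was described at 10 genes of iron uptake, storage and sensing in K562 cells. The genes are FTL, FTH1, TFRC, TFR2, SLC11A2, STEAP3, SLC40A1, ACO1, IREB2 and NCOA4, out of 20098 protein-coding genes annotated on the autosomes and X. Each gene was given a window, which is its annotated span on hg19 plus 10 kb on each side, and a peak belonged to the gene when it shared at least 1 bp with that window. In all, 41 of the 28265 SMARCA4 peaks met this rule, and every one of the 10 genes had at least 1 peak. K562 cells are an established line from human chronic myelogenous leukaemia, with erythroid features, and SMARCA4 is an ATPase subunit of the SWI/SNF complexes, which move nucleosomes. Crosslinking took 30 min in 2 mM disuccinimidyl glutarate and 10 min in 1% formaldehyde, and chromatin was sheared to fragments of 150 to 400 bp. There were 3 SMARCA4 ChIP libraries and 3 input libraries, called biological replicates in the paper and technical replicates, with 1 input, in the deposited description. The list keeps regions found in at least 2 of the 3 ChIP libraries and gives a start and an end alone. No height, score or read depth comes with it, so the list shows neither depth nor the spread (SD) between replicates.

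Iron enters most cells bound to transferrin, which the transferrin receptor carries into endosomes. There the iron is released, reduced and pumped into the cytosol, where it is used for haem and iron-sulfur clusters or stored in ferritin, a shell built of heavy and light chains. Iron regulatory proteins sense the cytosolic iron pool and bind ferritin and transferrin receptor transcripts when iron is low. Erythroid cells take up more iron than other cells because they make haemoglobin.

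All 10 genes had a peak within 1 kb of one of their annotated transcription start sites (TSSs), a class called promoter peaks here. Over all coding genes, 63.2% had at least 1 peak in the window and 48.2% had a promoter peak. In each of the 10 genes a peak lay over the TSS of the canonical transcript, the representative one that the annotation marks, which was true of 34.9% of the 19819 coding genes that have one. Of the 41 peaks, 22 were promoter peaks, 4 lay within 1 kb of a TSS of another gene alone, and 15 were distal, more than 1 kb from every annotated TSS. The distal peaks belonged to 5 genes, namely FTH1 with 6, TFRC with 4, SLC11A2 and NCOA4 with 2 each, and FTL with 1. A distal peak was present in the windows of 31.9% of all coding genes. TFR2, STEAP3, SLC40A1, ACO1 and IREB2 had no distal peak when every annotated TSS was counted. This depends on the TSSs used, because a promoter peak of TFR2 lay 14.8 kb and one of SLC40A1 1.08 kb from the canonical TSS.

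**Figure D1:**
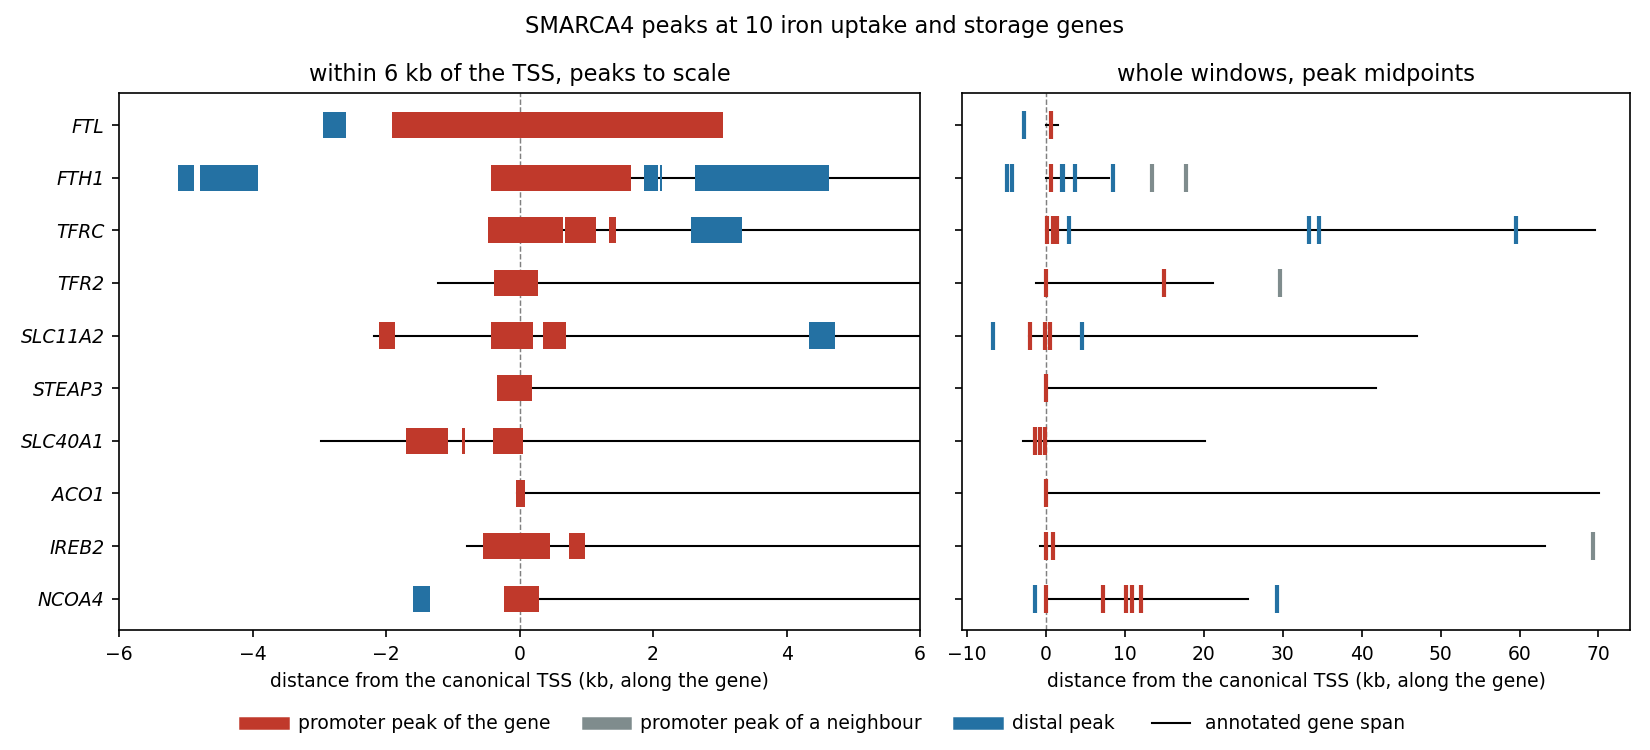
SMARCA4 peaks at the 10 genes, placed by distance in kb from the canonical TSS along the direction of transcription. The left panel shows peaks to scale within 6 kb of the TSS and the right panel marks peak midpoints over the whole windows; red bars are promoter peaks of the gene, grey bars promoter peaks of a neighbour, blue bars distal peaks and black lines the gene spans. A red peak crosses the TSS line in all 10 genes, from 125 bp wide at ACO1 to 4960 bp at FTL.

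FTL encodes the light chain of ferritin and is the shortest of the 10 genes, with a span of 1571 bp and 1 annotated transcript on the plus strand. A peak of 4960 bp at chr19:49466661-49471620 covered the whole gene, from 1905 bp upstream of the TSS to 3054 bp downstream of it. It contained all 4 exons and reached an exon of GYS1, the muscle glycogen synthase gene, beyond the 3′ end of FTL. By width it ranked 3 among the 28265 peaks. Coding genes whose entire span lay inside 1 peak numbered 29, and 28 of these were among the 1147 coding genes no longer than 2 kb. The FTL peak held 5 GATA motifs (GATA preceded by A or T and followed by A or G), 5 GGGCGG motifs, which zinc finger factors of the SP and KLF families recognise, and 3 G4 motifs, meaning 4 guanine runs, each 3 or longer, that lie 1 to 7 bases apart. It also held 1 AP-1 motif (TGACTCA or TGAGTCA), centred at -1364 bp from the TSS and followed by GC, which is the longer form that NF-E2 and its relatives recognise. Only 6 peaks of the list were within 0.8 to 1.25 times its width, itself included, and all 6 held a GATA motif and a GGGCGG motif and a G4 motif, so the presence of these motifs says little about a region of this size. A second peak of 346 bp at chr19:49465619-49465964 was distal, ending 2602 bp upstream of the TSS, and overlapped no coding gene. It held no GATA or AP-1 motif and 1 CCGGAAG motif of the ETS family. The 300 bases before the FTL TSS (chr19:49468266-49468565, plus strand) and 150 bases of the distal peak (chr19:49465719-49465868, plus strand) are shown because they lie in the 2 peaks of this gene and outside its exons. Capitals mark listed motifs on either strand, here and in the sequences that follow: GATA alone or in an E-box-GATA composite (CTG, 7 or 8 bases, then GATA preceded by A or T and followed by A), AP-1 with its NF-E2 form, G4, and GGGCGG or CCAAT or CCGGAAG. Touching motifs run together, and a match describes sequence, not binding. In distal peaks the 150 bases with the most listed motifs outside UTRs and coding exons were taken, so the shares quoted for the central 150 bp of all distal peaks are not a like comparison with them.
FTL promoter: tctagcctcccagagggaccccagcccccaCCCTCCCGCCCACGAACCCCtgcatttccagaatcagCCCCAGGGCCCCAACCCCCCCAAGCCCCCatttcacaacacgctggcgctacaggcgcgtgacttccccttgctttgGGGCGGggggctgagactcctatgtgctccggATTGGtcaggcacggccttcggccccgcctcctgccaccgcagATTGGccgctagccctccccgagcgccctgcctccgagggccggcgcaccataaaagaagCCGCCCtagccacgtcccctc
FTL distal peak: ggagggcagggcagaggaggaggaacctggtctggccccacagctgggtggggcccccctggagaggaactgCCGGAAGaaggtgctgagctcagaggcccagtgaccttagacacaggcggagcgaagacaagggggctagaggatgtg
The promoter stretch held 2 G4 motifs, both on the strand opposite to the gene, with 3 GGGCGG and 2 CCAAT motifs. Of 19819 coding promoters of 300 bases, 34.5% held a G4 motif, 60.9% GGGCGG and 37.8% CCAAT.

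FTH1, the heavy chain of ferritin with the ferroxidase activity that oxidises iron for storage, had 9 peaks in a window of 27917 bp, or 3.22 per 10 kb. Of the 5703 coding genes with a window within 0.8 to 1.25 times this length, 48 (0.842%) had as many or more, and the median of the 5703 was 1 peak. The gene lies on the minus strand of chromosome 11. Its promoter peak, 2106 bp wide at chr11:61733435-61735540, reached from 434 bp upstream of the TSS to 1671 bp downstream, over 1 of the 4 exons and into the intron after it. The next peaks followed closely inside the gene. They were 199 bp wide at chr11:61733036-61733234, 35 bp wide at chr11:61732969-61733003 and 2007 bp wide at chr11:61730477-61732483. Peaks at most 500 bp apart, when joined, made a single region of 5064 bp from these 4. The 2007-bp peak touched 2 of the 4 exons of the canonical FTH1 transcript and an exon of BEST1, the bestrophin gene that overlaps it on the opposite strand. It held 5 GATA motifs, 1 of them in an E-box-GATA composite, and 2 CACGTG motifs. Among peaks within 0.8 to 1.25 times its width, 75% held a GATA motif, 13.5% the composite and 36.9% CACGTG. Both peaks over 2 kb were among the widest in the list, at ranks 113 and 138. Altogether 49.4% of the FTH1 span lay in peaks.

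FTH1 also had peaks outside its own span. Upstream lay a pair of distal peaks, 870 bp at chr11:61739028-61739897 and 239 bp at chr11:61739982-61740220, of which the nearer began 3922 bp before the TSS. The 870-bp peak held 1 AP-1 motif in its NF-E2 form and 2 G4 motifs. It also held 1 GGGCGG motif, outside the stretch printed below, and was the only distal peak of the 10 genes with a G4 motif. Downstream lay a 199-bp distal peak at chr11:61726589-61726787, in an intron of BEST1 and 8.32 kb from the FTH1 TSS. It held 1 GATA motif and 1 AP-1 motif in its NF-E2 form with 6 bases between them. The remaining 2 peaks, 416 and 588 bp wide, lay within 1 kb of a TSS of BEST1 and were counted as its promoter peaks. The promoter before the TSS (chr11:61735107-61735406), 150 bases of the downstream peak (chr11:61726630-61726779) and 150 bases of the upstream peak (chr11:61739506-61739655), all on the minus strand, are shown for the GGGCGG motifs before the TSS and for the AP-1 motifs, which 2 of the 6 distal peaks held. Over whole peaks, 24.9% of all distal peaks in the list held an AP-1 motif. The upstream peak was chosen for printing after its motifs were seen.
FTH1 promoter: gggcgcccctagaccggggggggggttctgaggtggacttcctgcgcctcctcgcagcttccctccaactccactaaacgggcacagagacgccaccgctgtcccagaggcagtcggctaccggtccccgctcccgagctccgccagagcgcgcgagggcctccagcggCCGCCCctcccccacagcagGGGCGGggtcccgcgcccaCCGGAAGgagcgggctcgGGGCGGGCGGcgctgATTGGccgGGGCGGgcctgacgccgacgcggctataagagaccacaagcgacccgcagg
FTH1 downstream peak: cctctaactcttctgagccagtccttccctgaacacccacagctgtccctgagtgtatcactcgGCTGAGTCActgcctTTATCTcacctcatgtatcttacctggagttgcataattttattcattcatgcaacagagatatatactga
FTH1 upstream peak: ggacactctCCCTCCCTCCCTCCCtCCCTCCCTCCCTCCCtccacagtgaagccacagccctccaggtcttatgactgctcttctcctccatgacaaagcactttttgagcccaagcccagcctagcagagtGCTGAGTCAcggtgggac
The promoter stretch held 5 GGGCGG motifs, 1 CCAAT motif and 1 CCGGAAG motif, the last of which 12.8% of coding promoters of this length held. No stretch of the 2007-bp peak is shown, because annotated exons of FTH1 or BEST1 touch every stretch of 150 bases in it.

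Both ferritin genes have many processed copies, so the uniqueness of their sequence was measured. Of the 75-base stretches centred on the bases of the FTL peaks, 99.4% occurred once in hg19 on either strand, and of those of the FTH1 peaks 98%. The lowest value of the 41 peaks was 94.8%, in the 2007-bp FTH1 peak, where some stretches had up to 7 exact copies. In 37 of the 41 peaks every stretch was unique. Within the exons of the canonical transcripts the unique share was 96.1% for FTL and 81.9% for FTH1. Near-identical copies were not counted by this measure.

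TFRC encodes the transferrin receptor of nearly all dividing cells. It had 7 peaks, of which 3 were promoter peaks and 4 distal, in a window of 89643 bp on the minus strand of chromosome 3. Among 2624 coding genes of like window length 102 (3.89%) had as many or more. The peak over the TSS, 1131 bp at chr3:195808303-195809433, was followed in the first intron by peaks of 471 bp (chr3:195807810-195808280) and 119 bp (chr3:195807510-195807628), and 2.57 kb into the gene by a distal peak of 762 bp (chr3:195805632-195806393). The TSS peak held 5 GGGCGG motifs, 2 G4 motifs and 1 CACGTG motif, the E-box that MYC and its partners recognise, and it held no GATA motif. Each of the 3 intronic peaks held at least 1 GATA motif. A pair of narrow distal peaks, of 225 and 199 bp, lay 33.3 to 34.7 kb from the TSS, beyond the 3′ end of the canonical transcript. They held 1 and 2 GATA motifs. The farthest peak, 810 bp at chr3:195749020-195749829, lay 59.1 kb from the TSS in an intron of a longer TFRC transcript. It held 4 GATA motifs, 2 AP-1 motifs and the only CTCF motif in the 41 peaks. The closest GATA and AP-1 motifs there had 10 bases between them. The promoter before the outermost TFRC TSS (chr3:195809025-195809324, minus strand) is shown because it lies in the TSS peak and carries 2 of its 5 GGGCGG motifs.
TFRC promoter: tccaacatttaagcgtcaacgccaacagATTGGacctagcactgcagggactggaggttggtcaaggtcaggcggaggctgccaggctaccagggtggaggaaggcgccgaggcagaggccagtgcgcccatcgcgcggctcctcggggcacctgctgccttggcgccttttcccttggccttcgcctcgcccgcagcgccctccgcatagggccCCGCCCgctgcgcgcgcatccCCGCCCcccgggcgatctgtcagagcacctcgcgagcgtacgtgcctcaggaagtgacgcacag
The stretch also held 1 CCAAT motif. Over whole peaks, as counted here for TFRC, 71.3% of all 13841 distal peaks held a GATA motif and 24.9% an AP-1 motif.

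TFR2, a second transferrin receptor that serves iron sensing in liver and erythroid precursors, had 3 peaks on the minus strand of chromosome 7. The peak over its TSS was 661 bp wide (chr7:100238891-100239551). It held 2 G4 motifs and 1 E-box-GATA composite, at chr7:100239215-100239230, centred at -47 bp from the canonical TSS. Of the 6254 peaks over a canonical TSS of a coding gene, 1.82% held this composite, and TFR2 was the only one of the 10 genes whose TSS peak did. A peak of 214 bp in an intron (chr7:100224140-100224353) counted as a promoter peak because a shorter TFR2 transcript starts 874 bp away. The widest peak of the window, 1158 bp, lay at the promoter of the neighbour MOSPD3.

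The genes of membrane transport and reduction had between 1 and 5 peaks. SLC11A2 encodes DMT1, which carries ferrous iron across the endosomal membrane, and had 5 peaks on the minus strand of chromosome 12. Its promoter peaks followed its alternative starts. A peak of 625 bp (chr12:51419972-51420596) lay over the canonical TSS and a peak of 346 bp (chr12:51419468-51419813) over an alternative TSS downstream of it. Another of 236 bp (chr12:51422034-51422269), 1.87 kb upstream, lay 9 bp from the TSS of a transcript that begins upstream. Distal peaks of 393 bp in an intron (chr12:51415438-51415830) and of 296 bp upstream (chr12:51426805-51427100) completed the window. The intronic peak held 3 GATA motifs and the upstream one held none. STEAP3, the endosomal ferrireductase of erythroid cells, had 1 peak in a window of 61822 bp, a number that 69.7% of coding genes of like length reached or passed. That peak, 518 bp at chr2:119981076-119981593, held 3 G4 motifs and 4 GGGCGG motifs at a GC content of 75.7%. SLC40A1 encodes ferroportin, the only known iron exporter of human cells. Its 3 peaks together spanned 1754 bp, with widths of 449 bp over the canonical TSS (chr2:190445466-190445914), 45 bp (chr2:190446327-190446371) and 629 bp over an upstream TSS (chr2:190446591-190447219). The peak over the canonical TSS held 5 GGGCGG motifs and 1 G4 motif at a GC content of 74.4% and no GATA motif. The upstream peak held 2 GATA motifs, no GGGCGG motif and a GC content of 44%. The STEAP3 promoter (chr2:119981107-119981406, plus strand) is shown for its G4 motifs, a choice made after they were seen, and 150 bases of the SLC11A2 intronic peak (chr12:51415585-51415734, minus strand) for its GATA motifs.
STEAP3 promoter: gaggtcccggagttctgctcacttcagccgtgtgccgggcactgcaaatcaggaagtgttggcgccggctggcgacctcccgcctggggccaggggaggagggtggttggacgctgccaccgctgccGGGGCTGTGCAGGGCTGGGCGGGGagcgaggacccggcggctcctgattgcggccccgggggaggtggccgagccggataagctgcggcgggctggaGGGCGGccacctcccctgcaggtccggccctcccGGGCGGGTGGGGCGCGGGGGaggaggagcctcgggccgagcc
SLC11A2 distal peak: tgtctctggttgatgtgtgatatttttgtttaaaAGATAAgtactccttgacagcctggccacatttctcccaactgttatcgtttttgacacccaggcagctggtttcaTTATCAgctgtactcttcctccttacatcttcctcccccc
The STEAP3 stretch held 2 G4 motifs, both on the strand of the gene, and 3 GGGCGG motifs, and the SLC11A2 stretch 2 GATA motifs, 1 on each strand.

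The iron regulatory proteins are encoded by ACO1, a cytosolic aconitase that binds RNA when it lacks its iron-sulfur cluster, and by IREB2, which is degraded when iron is plentiful. ACO1 had the least SMARCA4 coverage of the 10 genes. Its 1 peak was 125 bp wide (chr9:32384593-32384717), reached 48 bp upstream and 76 bp downstream of the TSS, and covered 0.167% of the gene span. It had the highest GC content of the 41 peaks, 79.2%, and held 2 GGGCGG motifs. It was narrower than 200 bp, so with such peaks left out ACO1 had none and 9 genes remained with a peak. IREB2 had a promoter peak of 1005 bp (chr15:78730009-78731013) and another of 236 bp in the intron after it (chr15:78731305-78731540). The wider one held 6 GGGCGG motifs and 1 G4 motif. A peak of 356 bp at the other end of the window lay at the promoter of its neighbour HYKK. Neither gene had a GATA motif in any window peak. All their peaks lay within 1 kb of a TSS, and of all such peaks in the list only 32.2% held one.

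NCOA4 delivers ferritin to the autophagy pathway, which frees the stored iron. It had 7 peaks in a window of 45536 bp on the plus strand of chromosome 10, which 2.48% of 4226 coding genes of like length matched or passed. The peak over its TSS was 516 bp wide (chr10:51564970-51565485) and held 2 GGGCGG motifs and no GATA motif. A wider intronic peak of 782 bp (chr10:51572061-51572842) lay over the start of another NCOA4 transcript, with 1 AP-1 and 1 G4 motif. Farther along, peaks of 237, 97 and 833 bp lay 10 to 12.4 kb from the canonical TSS and within 1 kb of another start. All 3 held GATA motifs, and the 833-bp peak (chr10:51576786-51577618) held an E-box-GATA composite. A distal peak of 245 bp upstream (chr10:51563609-51563853) held 3 GATA motifs. The widest peak of the window, 1543 bp at chr10:51593749-51595291, lay downstream of NCOA4 in an intron of TIMM23, which encodes a mitochondrial import channel. It held 5 GATA motifs, 1 of them in an E-box-GATA composite. Among peaks of like width, 71.8% held a GATA motif and 13.6% the composite. From the 1543-bp peak 150 bases (chr10:51594329-51594478, plus strand) are shown, with 3 GATA motifs and 1 CCAAT motif.
NCOA4 distal peak: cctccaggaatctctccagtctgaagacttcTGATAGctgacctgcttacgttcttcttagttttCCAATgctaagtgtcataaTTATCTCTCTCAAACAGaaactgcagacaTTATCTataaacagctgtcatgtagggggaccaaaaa
The composite reads on the minus strand, so that in the line above its GATA part comes before its CTG part. In the central 150 bp of all distal peaks, 56.2% held a GATA motif, 16.5% an AP-1 motif and 11% a composite of this kind, for the printed stretches of distal peaks with the caveat given above.

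**Figure D2:**
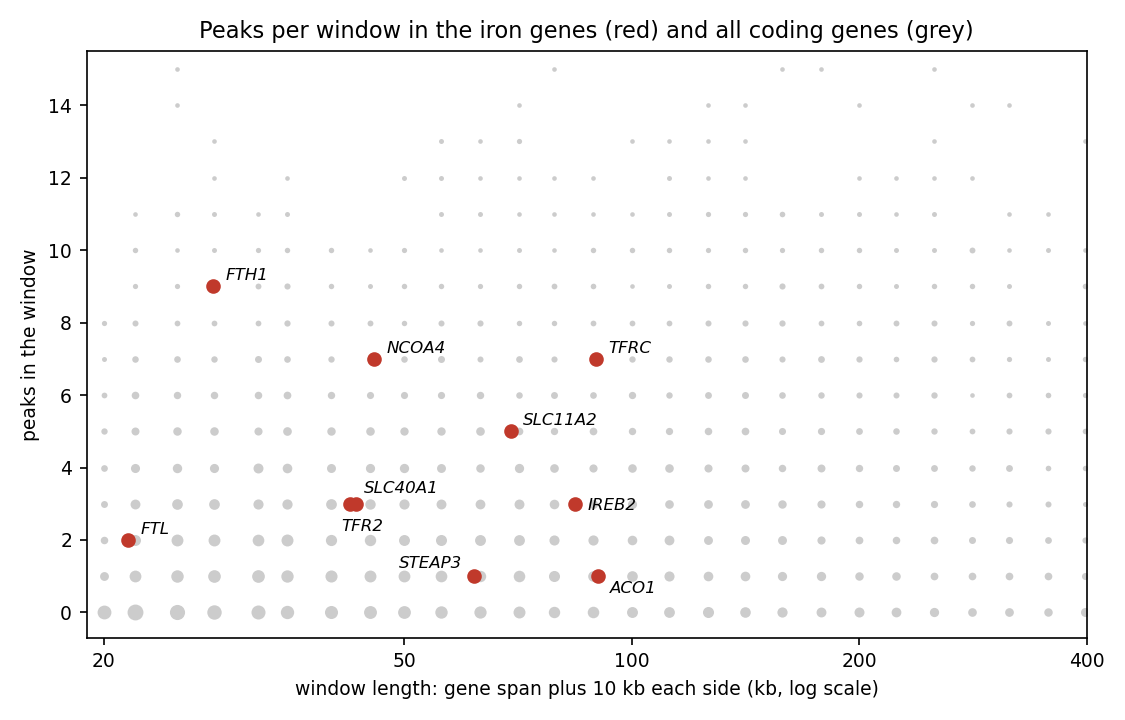
Number of SMARCA4 peaks per window against window length in kb on a log scale. Red points are the 10 iron genes and grey points all coding genes, with an area that grows with the number of genes at that position; 575 genes with over 15 peaks or windows over 400 kb are not drawn. FTH1, NCOA4 and TFRC, with 9, 7 and 7 peaks, lie above most genes of like length, while STEAP3 and ACO1 have 1 peak each.

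The count of peaks did not follow gene length within the set. FTH1, with a span of 7.92 kb, had 9 peaks, and ACO1, with a span of 70.2 kb, had 1. The median was 3 peaks per gene, beside 1 over all coding genes. FTH1, TFRC and NCOA4 had at least 7, as did 3.93% of coding genes. For FTL, TFR2, SLC40A1 and IREB2, between 27.9% and 30.3% of coding genes of like window length had as many peaks or more.

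The median width of the 41 peaks was 416 bp (95% binomial interval of the median 239 to 629 bp), and the interval held the median of all peaks, 368 bp. Promoter peaks had a median of 494 bp and distal peaks of 296 bp, beside 410 bp and 337 bp over all peaks of these classes. The range was from 35 to 4960 bp. Of the 41 peaks, 8 were narrower than 200 bp and 16 lay at or above the upper quartile of all peaks, 586 bp. Widths of at least 1500 bp, a bound set after the widths were seen, occurred in 4 of the 41 peaks and in 1.72% of the list. These 4 lay in the windows of FTL, FTH1 (2 peaks) and NCOA4. The NCOA4 one, of 1543 bp, lay outside the gene in an intron of TIMM23. It was narrower than the 99th percentile of all peaks, 1726 bp. The peaks over the canonical TSSs had a median width of 643 bp, and those of all coding genes of 572 bp. The peaks of FTL and FTH1 reached at least 1500 bp downstream of the TSS, also a bound set afterwards, which 46 of the 6907 coding genes with a peak over the TSS (0.666%) did. Those of the other 8 genes reached between 46 and 658 bp.

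**Figure D3:**
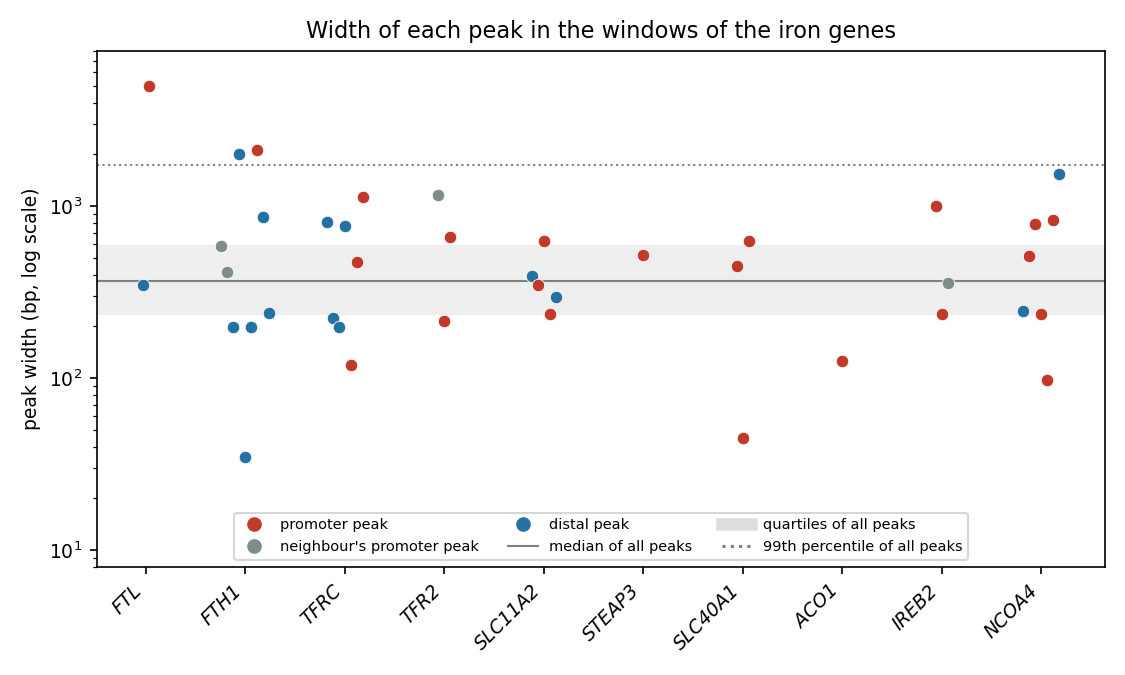
Width in bp, on a log scale, of each of the 41 peaks by gene. Points are coloured as promoter (red), neighbour's promoter (grey) and distal (blue); the grey band spans the quartiles of all peaks in the list, 237 to 586 bp, the line their median of 368 bp and the dotted line their 99th percentile of 1726 bp. FTL and FTH1 hold the 3 points above the dotted line.

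The 10 peaks over the canonical TSSs had a higher median GC content than the other peaks of these genes, as in the whole list, though not within every gene. Their median GC content was 65.4% (55.9 to 79.2%), close to the 67.1% of all peaks over a coding TSS. All 10 held GGGCGG, as did 86.5% of all peaks over a coding TSS, and 7 held a G4 motif, beside 53.3%. The genes whose TSS peak had no G4 motif were SLC11A2, ACO1 and NCOA4. A GATA motif was found in 4 of these 10, those of FTL, FTH1, TFR2 and SLC11A2, and in 26.3% of all peaks over a coding TSS. Of the 31 other peaks 1 lay over a canonical TSS of a neighbour. The remaining 30 had a median GC content of 46.8%, and 19 (63.3%) held a GATA motif, 6 (20%) GGGCGG and 2 (6.67%) a G4 motif. The 22011 peaks of the list over no coding TSS had a median of 49.1% and shares of 58.4%, 25.8% and 14.9%, so the contrast with the TSS peaks is a trait of the whole list.

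To compare peaks of unequal width, motifs were also counted in the central 200 bp. A GATA motif was there in 16 of the 41 peaks (39%, 95% Wilson interval 25.7 to 54.3%), beside 40.2% of all peaks. It was found in 8 of 15 distal peaks (53.3%, interval 30.1 to 75.2%) and 7 of 22 promoter peaks (31.8%, interval 16.4 to 52.7%), where all distal peaks had 62.4% and all peaks within 1 kb of a TSS 18.9%. Both intervals held the value of the whole list. AP-1 motifs occupied the centre of 2 peaks (4.88%, interval 1.35 to 16.1%, beside 12.3%), both distal peaks of FTH1 and both in the NF-E2 form. GGGCGG was central in 11 peaks (26.8%, interval 15.7 to 41.9%, beside 30.1%), of which 9 were promoter peaks and 1 was distal. A G4 motif lay anywhere in 9 peaks (22%, interval 12 to 36.7%, beside 23.4%), of which 8 were promoter peaks. The looser KLF motif CCNCNCCC was central in 7 of 22 promoter peaks (31.8%, interval 16.4 to 52.7%, beside 56% of all peaks near a TSS). Over whole peaks its share was 59.1% (interval 38.7 to 76.7%, beside 71.1%) and all 10 TSS peaks held it. The E-box-GATA composite was central in 3 of 22 promoter peaks (13.6%, interval 4.75 to 33.3%, beside 2.77%) and in 2 over whole peaks (9.09%, interval 2.53 to 27.8%, beside 4.22%). In 1 of these 3 the composite lay outside the peak, because the central 200 bp of a narrower peak extends past its edges. For CCNCNCCC and this composite the interval left out the value of the list in the centres and held it over whole peaks. The 22 promoter peaks include 8 that lay more than 1 kb from the canonical TSS. Over whole distal peaks the intervals of CCGGAAG and GCGCATGC also left out the value of the list. Their shares were 13.3% (interval 3.74 to 37.9%, beside 2.82%) and 6.67% (interval 1.19 to 29.8%, beside 0.932%), from 2 and 1 of 15 peaks. In the central 200 bp of distal peaks both intervals held it. The shares there were 6.67% (interval 1.19 to 29.8%, beside 1.6%) and 0% (interval 0 to 20.4%, beside 0.441%). Intervals cover counting error only, and peaks of 1 gene are not independent of each other. They were computed for every motif and class, with no correction for their number.

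**Figure D4:**
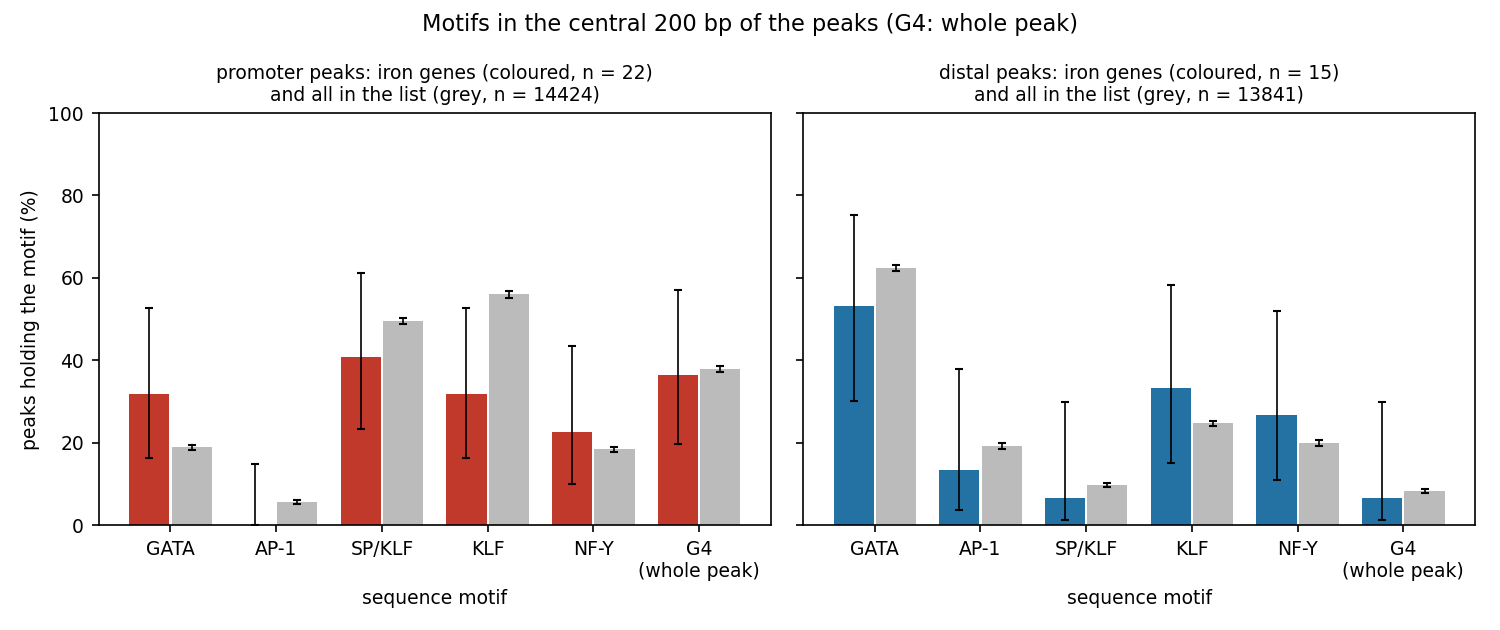
Share of peaks in percent that hold each motif, for promoter peaks (left) and distal peaks (right) of the iron genes in colour and for all peaks of the same class in grey. Motifs were sought in the central 200 bp and G4 in the whole peak; error bars are 95% Wilson intervals. GATA is the most frequent of these motifs in distal peaks (53.3% and 62.4%). SP/KLF, the GGGCGG motif, leads in promoter peaks of the iron genes at 40.9%, beside 49.6% of all peaks within 1 kb of a TSS.

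A GATA and an AP-1 motif stood together in 3 of the 41 peaks (7.32%), at FTL, FTH1 and TFRC, and in 11.5% of all peaks. With at most 20 bases between them, a distance chosen after the FTH1 and TFRC peaks were seen, 2 of the 41 peaks (4.88%) held such a pair, beside 2.83% of all peaks. Both were distal, and among distal peaks alone the shares were 13.3% and 4.72% within this distance and 13.3% and 17.9% at any distance. Over whole peaks the distal regions of the iron genes had 3.11 GATA motifs per kb and their promoter peaks 1.29, beside 3.81 and 1.07 for the list.

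Among 45 other genes of iron handling, 35 had a window peak, 27 (60%) a promoter peak and 17 (37.8%) a distal peak, where all coding genes had 63.2%, 48.2% and 31.9%. By role, 9 of 11 genes of uptake and transport had a window peak, 2 of 3 of storage and chaperones, 3 of 3 of export, 3 of 7 of systemic control, 5 of 5 of sensing, 5 of 6 of haem iron and 8 of 10 of iron-sulfur clusters. Genes with none included STEAP1, STEAP4, the mitochondrial ferritin FTMT, HAMP, TMPRSS6, BMP2, NEO1, ABCG2 and ISCA2. Of these HAMP, which encodes the hormone hepcidin, TMPRSS6, BMP2 and NEO1 belong to systemic control. In that group 3 of 7 genes had a window peak, among them HJV with 8 peaks. The 3 with the most peaks were SLC39A8, a metal importer, with 10, EPAS1, the hypoxia-inducible factor HIF-2 alpha, with 9, and HJV, a BMP co-receptor, with 8. In comparison lists, all 9 enzymes of haem biosynthesis and all 13 genes of the red cell membrane had a window peak, with promoter peaks in 8 and 13 and distal peaks in 5 and 12. Their median was 3 and 4 peaks per gene. These lists are small, several counts by role lie near the shares of all coding genes, and no difference was tested.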

How the data were processed

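The data are 1 list of SMARCA4 ChIP-seq regions in K562 cells. The authors trimmed reads, aligned them to hg19 with BWA, removed duplicates, called peaks in each replicate against input with MACS2 and kept regions found in at least 2 of the 3. The deposited columns hold region start and region end positions in bp, with no score or depth. Members and lists were chosen with earlier results of these data known. Genes came from GENCODE 44 mapped to build 37. Peaks were assigned to windows, classed by distance to TSSs and scanned for motifs on both strands with Python 3.11.15, numpy 2.4.6, scipy 1.17.1, pysam 0.24.0 and matplotlib 3.10.9. The central 200 bp of a narrower peak extends past its edges. The code for intervals, motifs and copies was tested on simulated data. Shares were set beside those of all coding genes or peaks, with no test.

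All 10 genes are named. Other iron genes are named when they had no peak or the 3 highest counts. Sequences come from promoter peaks, from each gene's widest distal peak and from distal peaks with both GATA and AP-1 motifs, outside UTRs; which 4 promoters to print, and the upstream FTH1 peak, were chosen after the values were seen. Alternatives changed peak width, merging, windows, TSS rules and motif stretches. Reads and signal tracks of single replicates were not analysed, and some items that these rules would name or print are not reported here.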

Additional observations from a re-analysis of the deposited data

How the results depend on the processing

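Of 54 alternative values, 46 stayed within 1.5-fold of the value reported, for counts, or within its 95% interval, for medians and shares, and 8 did not. The counts of genes with a peak and with a promoter peak lay between 9 and 10 in all alternatives run for them, and fell to 9 with peaks of at least 200 bp alone, which leaves out ACO1. With 50 kb on each side in place of 10 kb the windows held 66 peaks, of which 24 were distal, and with the gene spans alone 8 were distal. The division into promoter and distal peaks depended on the TSSs used. With 1 canonical transcript per gene there were 14 promoter and 24 distal peaks in place of 22 and 15, since many promoter peaks lie at alternative starts, and which genes lack a distal peak depends on this choice too. With 2500 bp as the promoter distance 9 peaks were distal. The median width ranged from 416 to 518 bp. A GATA motif was found in 56.1% of whole peaks in place of 39% of their centres, because wider stretches hold more motifs. Over all peaks of the list these shares were 51.3% and 40.2%. A G4 motif was found in 7.32% of centres in place of 22% of whole peaks, beside 13.5% and 23.4% over all peaks. The shares of AP-1 and GGGCGG motifs stayed within the intervals given for them. No paired analysis was possible because the list, the only file analysed, pools the replicates, and for the same reason no replicate could be left out. The list gives no depth, so a gene without a distal peak may have one that was not detectable.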

Other observations

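The motif TGACNNNGC is the antioxidant response core that NRF2 and BACH1 recognise with small MAF proteins. It lay in the central 200 bp of 3 of the 4 peaks at neighbouring promoters and of 2 of 22 promoter and 2 of 15 distal peaks of the iron genes, and of 13.4% of all peaks. Over whole peaks it was found in 12 of the 41 (29.3%) and in 23.2% of all peaks.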
